A study of Arabidopsis thaliana with 18 samples.

Results

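Tonoplast intrinsic proteins (TIPs) are aquaporins of the vacuolar membrane, and 6 of their genes are described here across Arabidopsis roots at full and low phosphate, untreated or given a zeatin isomer. GAMMA-TIP1 (TIP1;1, AT2G36830) and GAMMA-TIP2 (TIP1;2, AT3G26520) form the gamma class. DELTA-TIP1 (TIP2;1, AT3G16240), DELTA-TIP2 (TIP2;2, AT4G17340) and DELTA-TIP3 (TIP2;3, AT5G47450) form the delta class, and TIP4;1 (AT2G25810) stands alone. The names are RefSeq symbols or synonyms of the gene identifiers in the count table. The genes were selected on measured values of these data: the low level of DELTA-TIP3 after cis-zeatin in full phosphate was known when the list was drawn up. Which values left out the other 4 Arabidopsis TIP genes is not recorded. The 6 genes are 6 of 37037 entries in the table and 6 of the 19982 genes with enough reads to be tested.

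The samples are 18 poly(A) RNA-seq libraries from roots of Arabidopsis thaliana ecotype Columbia (Col-0), in 6 groups of 3. Seedlings were raised for 8 days in Murashige and Skoog medium with 625 µM phosphate, called full phosphate here, or with 5 µM phosphate, called low phosphate. At each phosphate level 1 group had no zeatin, 1 group had 5 µM trans-zeatin for 8 h and 1 group had 5 µM cis-zeatin for 8 h. Trans-zeatin and cis-zeatin are cytokinins, plant hormones that differ in the geometry of the side chain. The labels do not say whether untreated plants received solvent, nor whether replicates came from separate cultures. The p-values therefore measure the spread between these libraries, which may be technical. In whole-root RNA, fewer cells of a type and less RNA per cell cannot be told apart.

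A TIP folds into a membrane channel that lets water, and in several members ammonia, urea or hydrogen peroxide, pass between cytosol and vacuole. The channel narrows at a pair of Asn-Pro-Ala (NPA) motifs, the signature of aquaporins. In roots the large central vacuole fills most of an expanded cell, and TIPs are commonly used as markers of its membrane. Cytokinins act through histidine kinase receptors and type-B response regulators, which bind DNA. Phosphate starvation acts largely through the transcription factor PHR1 and its relatives.

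The coding sequence around the first NPA motif is printed for the 6 genes because it shows the signature they share and how far close relatives differ in bases. Each run has 33 bases of the coding strand, read from the TAIR10.1 assembly of RefSeq, and the capitals mark the 9 bases that encode Asn-Pro-Ala.
GAMMA-TIP1: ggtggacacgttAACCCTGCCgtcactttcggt
GAMMA-TIP2: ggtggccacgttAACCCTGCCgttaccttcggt
DELTA-TIP1: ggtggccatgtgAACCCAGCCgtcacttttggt
DELTA-TIP2: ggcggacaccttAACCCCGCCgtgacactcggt
DELTA-TIP3: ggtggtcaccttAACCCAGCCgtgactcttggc
TIP4;1: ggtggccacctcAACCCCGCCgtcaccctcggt

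The coding sequences of GAMMA-TIP1 and GAMMA-TIP2 are 81.1% identical, and those of DELTA-TIP2 and DELTA-TIP3 are 81.5% identical. The longest run of bases that any of the 15 pairs share in their coding sequences is 29, between the gamma genes. Reads were 50 bases long, so no exact read can come from more than 1 of the 6 genes within these coding sequences. Over whole transcripts, 5 of the 6 genes share no stretch of 50 bases with any other annotated gene. DELTA-TIP1 shares 71 of its 1140 such stretches (6.23%) with AT3G16250 (PnsB3), a gene on the opposite strand whose annotation overlaps it by 120 bases. It also overlaps a long noncoding RNA, AT3G03265, over 445 bases. The sources used here do not state whether counting used strand or how reads in overlaps were handled. Such reads could be counted for either gene or for neither.

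Libraries held 20839562 to 21871669 counted reads. Values are given as CPM, the count of a gene scaled to a common library total. The deposited sequencing report lists how many reads each library lost for undetermined bases, and by gaps in that number the libraries fall into 3 sets. The first set is the full-phosphate libraries of untreated and trans-zeatin roots. The second holds cis-zeatin in full phosphate, untreated low phosphate and replicate 1 of low-phosphate trans-zeatin. The third holds cis-zeatin in low phosphate and the other 2 low-phosphate trans-zeatin libraries. The labels name no sequencing runs. Replicate 2 of each zeatin group in low phosphate stands apart from its replicates, with a chi-square per degree of freedom over genes of 14.1 to 21.4 for trans-zeatin and 29.4 to 31.8 for cis-zeatin, against 2.79 to 12.3 for the other 14 pairs of replicates. As a check of the tissue, all 8 endodermis and all 7 root hair markers had reads in every group. Summed photosynthesis markers, 16 genes of the shoot, stood at 30.1 to 255 CPM per library and were highest after trans-zeatin in full phosphate.

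Per coding length, the gamma genes were the most abundant TIP transcripts of untreated roots, and the order of the 6 genes changed with treatment. In full phosphate the mean CPM per kilobase of coding sequence was 1691 for GAMMA-TIP1, 1411 for GAMMA-TIP2, 654 for DELTA-TIP2, 222 for DELTA-TIP3, 119 for DELTA-TIP1 and 97.0 for TIP4;1. In untreated low phosphate GAMMA-TIP2 came first with 1582, ahead of GAMMA-TIP1 with 1387 CPM per kilobase, and DELTA-TIP3 came last with 104. In all 4 zeatin groups, too, GAMMA-TIP2 came first and DELTA-TIP3 last, at 7.61 to 17.2 CPM per kilobase. For cis-zeatin in full phosphate the place of DELTA-TIP3 is a description, because its level there was known at the choice of genes. The order was the same per transcript length in every group.

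**Figure D1:**
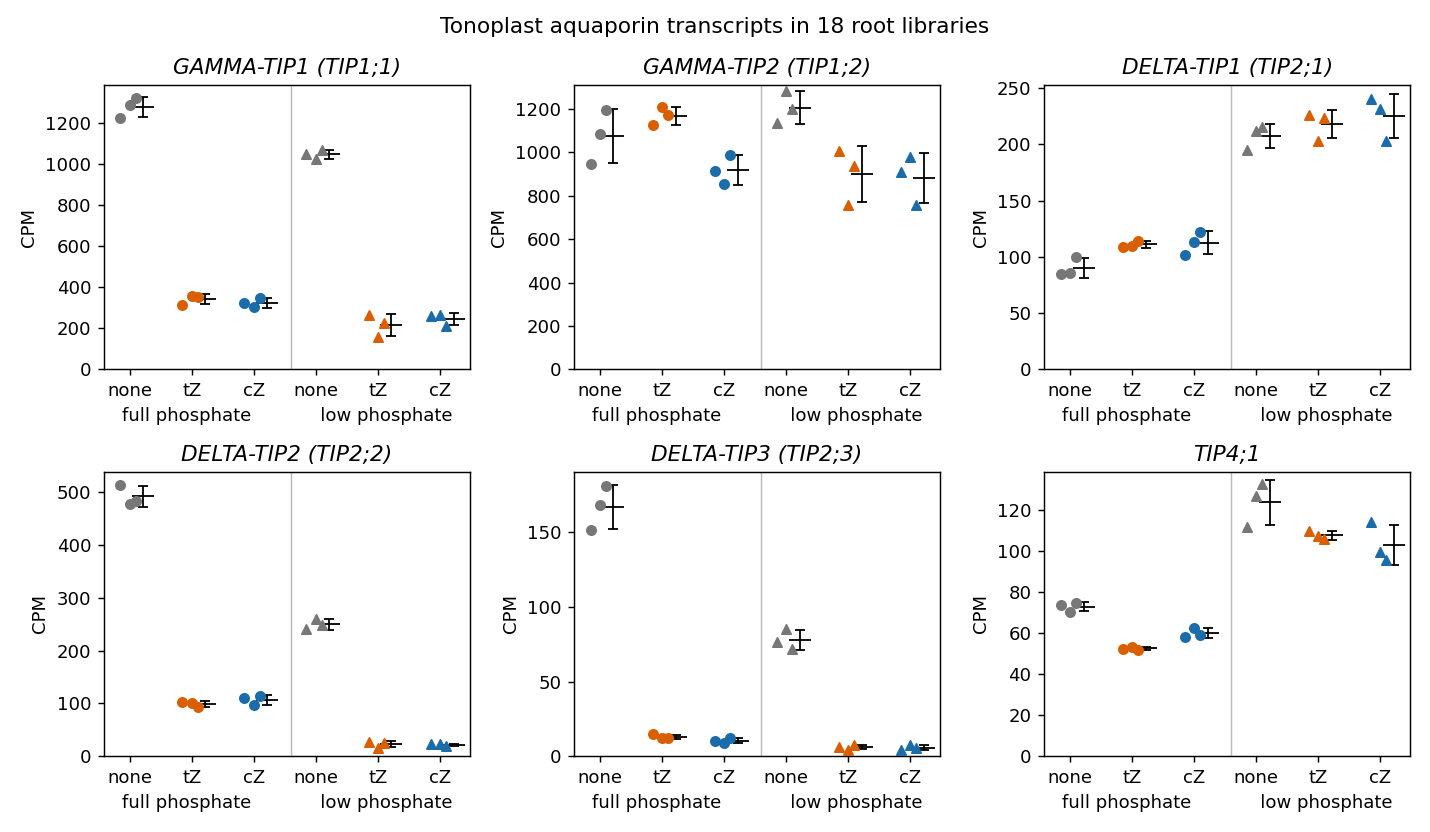
Level (CPM, linear axis from 0) of each of the 6 TIP genes in 18 libraries. Points are libraries, circles for full and triangles for low phosphate, and the black mark is the mean of 3 libraries with its SD. GAMMA-TIP1, DELTA-TIP2 and DELTA-TIP3 drop in every zeatin library, DELTA-TIP1 and TIP4;1 are set apart by phosphate, and GAMMA-TIP2 overlaps between neighbouring groups.

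GAMMA-TIP1, the main TIP of expanded vegetative cells, was high in both untreated groups and low in all 4 zeatin groups. In full phosphate its CPM was 1225, 1287 and 1324 untreated, 316, 360 and 353 with trans-zeatin, and 323, 303 and 349 with cis-zeatin. At low phosphate its level was 1048, 1024 and 1072 untreated, 267, 160 and 226 with trans-zeatin, and 259, 266 and 214 with cis-zeatin. Every zeatin library lay below every untreated library. The group means fell in the order untreated full, untreated low, trans-zeatin full, cis-zeatin full, cis-zeatin low and trans-zeatin low phosphate. Within this order the libraries of the isomers overlapped at each phosphate level.

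GAMMA-TIP2 is the closest relative of GAMMA-TIP1 and moved far less. Its CPM in full phosphate was 946, 1084 and 1197 untreated, 1126, 1210 and 1171 with trans-zeatin, and 914, 853 and 989 with cis-zeatin. In low phosphate it was 1133, 1284 and 1198 untreated, 1004, 756 and 938 with trans-zeatin, and 909, 981 and 757 with cis-zeatin. Ordered by group mean, every neighbouring pair of groups overlapped in its libraries, and the highest group mean was 1.37 times the lowest.

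DELTA-TIP1, a TIP able to carry ammonia, differed mainly between phosphate levels. In full phosphate its CPM was 84.4, 85.6 and 99.9 untreated, 109, 110 and 114 with trans-zeatin, and 102, 113 and 122 with cis-zeatin. At low phosphate its level was 195, 211 and 215 untreated, 226, 203 and 224 with trans-zeatin, and 240, 231 and 203 with cis-zeatin. Every low-phosphate library lay above every full-phosphate library. Of the overlapping genes, AT3G16250 reached at most 0.148 CPM in any library and AT3G03265 had no reads. Reads in overlaps may have been left uncounted, so a lack of reads does not show a lack of transcript.

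DELTA-TIP2 combined both responses. In full phosphate its CPM was 514, 478 and 484 untreated, 102, 101 and 92.7 with trans-zeatin, and 110, 96.9 and 114 with cis-zeatin. In low phosphate it was 240, 260 and 249 untreated, 26.8, 16.5 and 24.5 with trans-zeatin, and 23.4, 23.0 and 19.7 with cis-zeatin. Untreated libraries lay far above zeatin libraries, and within each treatment full phosphate lay above low phosphate without overlap. The highest group mean was 22.3 times the lowest.

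DELTA-TIP3 had the widest range of the 6 genes, with a highest group mean 29.2 times the lowest. The highest mean is that of untreated full phosphate, which served the contrast known at the choice of genes. The range and the levels set against that mean are therefore a description. In full phosphate its CPM was 152, 169 and 181 untreated, 14.6, 12.5 and 11.9 with trans-zeatin, and 10.05, 9.08 and 12.1 with cis-zeatin. At low phosphate its level was 76.6, 85.2 and 72.1 untreated, 6.18, 4.43 and 7.21 with trans-zeatin, and 4.34, 7.66 and 5.19 with cis-zeatin. Libraries of the isomers overlapped at both phosphate levels, and every treated library lay below every untreated one.

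TIP4;1 was the least abundant of the 6 genes in untreated full phosphate. Its CPM there was 73.5, 70.3 and 74.4 untreated, 52.2, 53.3 and 51.9 with trans-zeatin, and 57.8, 62.5 and 58.9 with cis-zeatin. In low phosphate it was 111, 127 and 132 untreated, 110, 107 and 105 with trans-zeatin, and 114, 99.2 and 95.6 with cis-zeatin. All low-phosphate libraries lay above all full-phosphate libraries. With cis-zeatin in low phosphate, replicate 1 lay within the range of the untreated libraries.

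In low phosphate alone some TIP transcripts were higher and others lower, and the 3 delta genes parted. The comparison of untreated low with untreated full phosphate asks what starvation changes. Of the 6 genes, 2 rose and 2 fell, so 4 of 6 were called, where 44.7% of all tested genes were called. All adjusted p-values are from edgeR's quasi-likelihood test with Benjamini-Hochberg adjustment over the 19982 genes. DELTA-TIP1 rose by 1.20 ± 0.09 (SE) on the log2 scale, or 2.31-fold (adjusted p = 5.32e-10). TIP4;1 rose by 0.76 ± 0.08, or 1.70-fold (adjusted p = 5.41e-08). DELTA-TIP2 fell by 0.98 ± 0.11 (adjusted p = 5.35e-07) and DELTA-TIP3 fell by 1.10 ± 0.13 (adjusted p = 7.71e-07), to 50.8% and 46.6% of their full-phosphate means. GAMMA-TIP2 did not pass, at 0.16 ± 0.11 (adjusted p = 0.243). The untreated full-phosphate libraries also served the cis-zeatin contrast known at the choice of genes. For DELTA-TIP3 the value and its part in the count are therefore a description.

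GAMMA-TIP1 was at 82.0% of its full-phosphate mean in low phosphate, with no overlap between libraries, and missed the threshold at -0.29 ± 0.13 (adjusted p = 0.0697). It passed without the replicates 2 of the low-phosphate zeatin groups (-0.29 ± 0.08, adjusted p = 0.00504), which belong to neither group compared. It also passed with only the groups compared (adjusted p = 0.00304), with library totals (adjusted p = 0.0337), and without trans-zeatin replicate 1 (adjusted p = 0.0325) or replicate 2 (adjusted p = 0.0107) of low phosphate. The untreated groups of full and low phosphate lie in different sequencing sets, so the set and phosphate cannot be told apart in this comparison. Marker lists moved with phosphate too. Of 12 tested photosynthesis markers 12 fell, from 85.6 to 141 summed CPM in full phosphate to 30.1 to 44.0 in low phosphate. Of 7 root hair markers 7 rose, from 456 to 509 up to 1603 to 1971 CPM, and of 8 endodermis markers 5 rose and 1 fell, from 604 to 650 up to 737 to 925 CPM. Of 6 root tip markers 4 rose, from 29.7 to 30.7 up to 37.8 to 52.2 CPM, and of 8 xylem markers 3 fell, from 518 to 584 down to 437 to 481 CPM. Their part in the TIP values was not tested.

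Trans-zeatin in full phosphate lowered 4 TIP transcripts and raised 1, with the largest falls in DELTA-TIP3, DELTA-TIP2 and GAMMA-TIP1. This comparison asks what the isomer changes when phosphate is ample, and its libraries all belong to 1 sequencing set. The calls were 5 of 6, against 49.4% of all tested genes. DELTA-TIP3 fell by 3.69 ± 0.15 on the log2 scale, a 12.9-fold difference (adjusted p = 1.14e-13), and only 51 of the 19982 genes had a lower value. The untreated libraries here are also those of the cis-zeatin contrast known at the choice of genes. For DELTA-TIP3 the p-value, the rank and its part in the count are therefore a description. DELTA-TIP2 fell by 2.32 ± 0.12, or 4.99-fold (adjusted p = 2.48e-12), and GAMMA-TIP1 fell by 1.90 ± 0.13, or 3.73-fold (adjusted p = 1.92e-10).

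The remaining genes differed less under trans-zeatin in full phosphate. TIP4;1 fell by 0.47 ± 0.08 (adjusted p = 3.12e-05), with no overlap between groups. DELTA-TIP1 rose by 0.30 ± 0.09, a 1.23-fold difference (adjusted p = 0.0065). GAMMA-TIP2 stood at 0.12 ± 0.11 with overlapping libraries (adjusted p = 0.39). The median difference was -1.18 for the 6 genes and 0.00 for all tested genes. The 6 genes were chosen with values of these data known, so their median is a description. None lay near it: GAMMA-TIP1 stood at -1.90 and TIP4;1 at -0.47, with none between. Endodermis markers moved in the same libraries: 5 of 8 fell and none rose, with summed CPM of 334 to 397 against 604 to 650 untreated, and no marker was at 0. Photosynthesis markers moved the other way, with 8 of 12 tested higher and summed CPM of 189 to 255. Of the root hair markers 1 rose and 2 fell, of the root tip markers 2 fell and of the xylem markers 1 rose. Their part in the TIP values was not tested.

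With cis-zeatin in full phosphate the differences are given as a description only, because DELTA-TIP3 was chosen with this contrast known. DELTA-TIP3 stood at -4.01 ± 0.15 on the log2 scale, a 16.1-fold difference. DELTA-TIP2 stood at -2.20 ± 0.12, GAMMA-TIP1 at -1.97 ± 0.13, TIP4;1 at -0.28 ± 0.08, GAMMA-TIP2 at -0.23 ± 0.11 and DELTA-TIP1 at 0.32 ± 0.09. In this contrast 5 of the 6 genes passed the threshold and 26.2% of all tested genes did, and nothing is read from that count because the contrast was used in the choice. The groups belong to different sequencing sets, which cannot be told apart from cis-zeatin. In the same libraries 6 of 8 endodermis markers fell, to 319 to 400 summed CPM, 4 of 7 root hair markers rose, to 740 to 1107 CPM, and 6 of 8 xylem markers rose, to 663 to 763 CPM. Of 6 root tip markers 1 fell, at 20.7 to 28.5 CPM, and of 12 tested photosynthesis markers 1 fell. Their part in the TIP values was not tested.

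**Figure D2:**
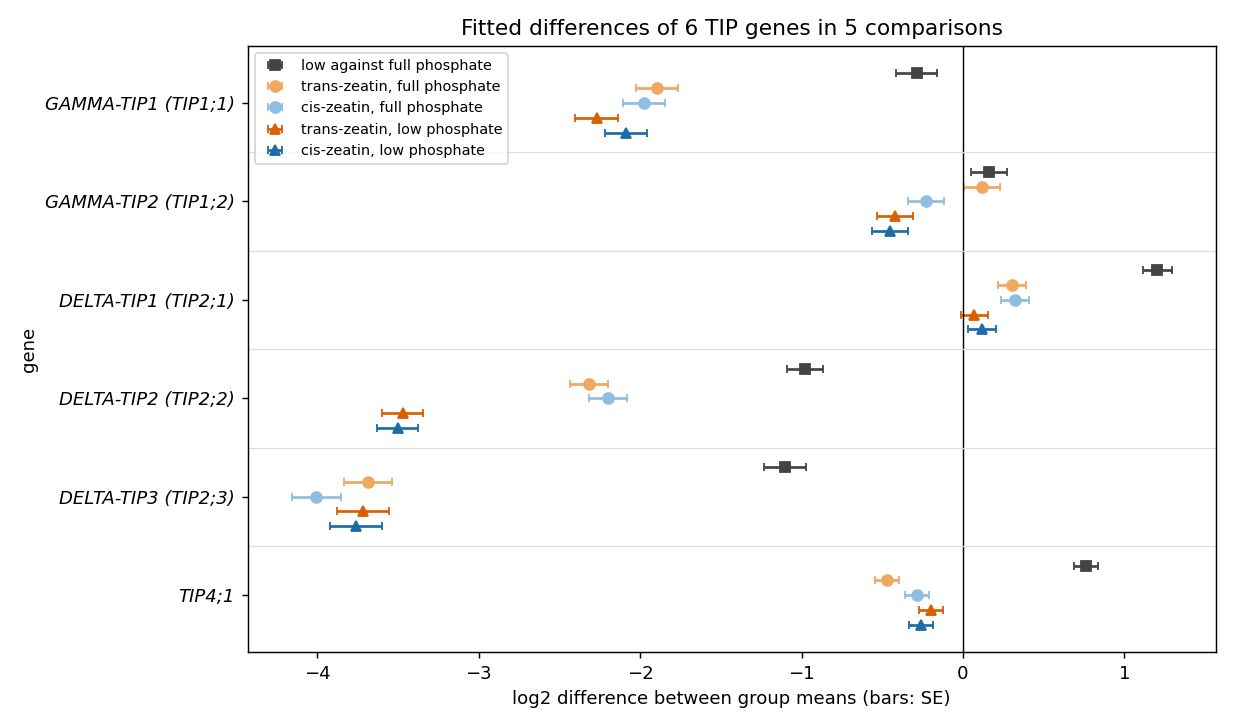
Fitted log2 difference (horizontal axis) of each TIP gene in 5 comparisons, with bars for the SE. GAMMA-TIP1, DELTA-TIP2 and DELTA-TIP3 lie between -4.01 and -1.90 in all 4 zeatin comparisons, and the squares for low against full phosphate lie above 0 for DELTA-TIP1 and TIP4;1.

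In low phosphate DELTA-TIP3, DELTA-TIP2 and GAMMA-TIP1 again had the deepest falls of the 6 genes with both isomers. These comparisons ask what each isomer changes in starved roots. With trans-zeatin 5 of 6 genes fell and none rose, where 32.2% of all tested genes were called. With cis-zeatin again 5 of 6 fell and none rose, where 31.2% were called. Both comparisons use the same untreated libraries. DELTA-TIP3 fell by 3.72 ± 0.16 with trans-zeatin (adjusted p = 2.61e-13) and fell by 3.76 ± 0.16 with cis-zeatin (adjusted p = 3.5e-13), which is 13.2-fold and 13.6-fold. DELTA-TIP2 fell by 3.47 ± 0.13 with trans-zeatin (adjusted p = 3.23e-14) and fell by 3.50 ± 0.13 with cis-zeatin (adjusted p = 4.71e-14), which is 11.1-fold and 11.3-fold.

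GAMMA-TIP1 fell by 2.27 ± 0.13 with trans-zeatin (adjusted p = 1.88e-11) and fell by 2.09 ± 0.13 with cis-zeatin (adjusted p = 8.31e-11) in low phosphate. In trans-zeatin replicate 1, which shares a sequencing set with the untreated libraries, GAMMA-TIP1 was at 267, DELTA-TIP2 at 26.8 and DELTA-TIP3 at 6.18 CPM. Untreated libraries of the same set had 1024 to 1072, 240 to 260 and 72.1 to 85.2 CPM. With the set as a term the trans-zeatin and cis-zeatin differences were -1.97 ± 0.17 and -1.62 ± 0.20 for GAMMA-TIP1. They were -3.22 ± 0.18 and -3.11 ± 0.21 for DELTA-TIP2, and -3.66 ± 0.26 and -3.67 ± 0.34 for DELTA-TIP3. The term rests on trans-zeatin replicate 1 against the other trans-zeatin libraries, so the trans-zeatin differences restate that replicate. All cis-zeatin libraries belong to the third set, and their term is taken from the trans-zeatin libraries, replicate 2 among them. Without both replicates 2 the differences were -2.09 and -2.15 for GAMMA-TIP1, -3.29 and -3.53 for DELTA-TIP2, and -3.54 and -4.03 for DELTA-TIP3, all still called.

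The calls of the less responsive genes in low phosphate depended on the fit. GAMMA-TIP2 fell by 0.42 ± 0.11 with trans-zeatin (adjusted p = 0.00564) and fell by 0.45 ± 0.11 with cis-zeatin (adjusted p = 0.00376). With the sequencing set as a term it stood at -0.26 ± 0.15 (adjusted p = 0.258) and -0.20 ± 0.19 (adjusted p = 0.577), and neither passed. TIP4;1 fell by 0.20 ± 0.07 with trans-zeatin (adjusted p = 0.0446) and fell by 0.26 ± 0.07 with cis-zeatin (adjusted p = 0.00996). With the set as a term it stood at -0.17 ± 0.11 (adjusted p = 0.306) and -0.22 ± 0.14 (adjusted p = 0.357). Same-numbered untreated and trans-zeatin libraries of low phosphate correlated at 0.17 to 0.30 and were counted as paired, but the main fit has no block. With a replicate block over all groups TIP4;1 missed the threshold under trans-zeatin at -0.20 (adjusted p = 0.0603). With the block and only the groups compared it stood at -0.17 ± 0.07 (adjusted p = 0.0678).

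That trans-zeatin call of TIP4;1 was also lost on leaving out any of 14 single libraries, or both replicates 2 (-0.20 ± 0.08, adjusted p = 0.0521). Further losses came with median-of-ratios scaling (adjusted p = 0.0534), upper-quartile scaling (adjusted p = 0.115), no filter (adjusted p = 0.0638) and only the groups compared (adjusted p = 0.172). The cis-zeatin call of TIP4;1 was lost without untreated replicate 3 (-0.21, adjusted p = 0.0660) or cis-zeatin replicate 3 (-0.21, adjusted p = 0.0556). It was also lost with only the groups compared (-0.23, adjusted p = 0.138). DELTA-TIP1 did not pass with either isomer, at 0.07 ± 0.09 (adjusted p = 0.585) and 0.12 ± 0.09 (adjusted p = 0.326). Endodermis markers also moved: 5 of 8 fell with trans-zeatin and 4 of 8 with cis-zeatin, at 413 to 703 and 552 to 633 summed CPM against 737 to 925 untreated. Of 7 root hair markers 1 rose and 1 fell with trans-zeatin and 1 rose with cis-zeatin, and 3 of 8 xylem markers rose with each isomer. Of 12 tested photosynthesis markers 1 rose with trans-zeatin, and no root tip marker was called. Their part in the TIP values was not tested.

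The isomers were compared at the same dose and time, as 1 pair of compounds at 2 phosphate levels, with p-values adjusted over all tested genes. In full phosphate GAMMA-TIP2 was higher with trans-zeatin than with cis-zeatin by 0.35 ± 0.11, a 1.27-fold difference without overlap (adjusted p = 0.0165). It was the 1 gene called of 6, against 41.2% of all tested genes. The call was lost without trans-zeatin replicate 2 (0.32, adjusted p = 0.0588) and without cis-zeatin replicate 2 (0.30, adjusted p = 0.0791). The other 5 genes missed the threshold. For DELTA-TIP3 this contrast uses the cis-zeatin level known at the choice of genes, so its value is a description. Without both replicates 2 of the low-phosphate zeatin groups, TIP4;1 passed too (-0.19, adjusted p = 0.0362). The 95% interval of the difference ran from -0.19 to 0.34 for GAMMA-TIP1, from -0.20 to 0.16 for DELTA-TIP1, from -0.36 to 0.12 for DELTA-TIP2, from -0.02 to 0.66 for DELTA-TIP3 and from -0.35 to -0.03 for TIP4;1. A p-value that misses the threshold does not show that the isomers act alike, and the last interval does not contain 0. In this comparison 12 of 12 tested photosynthesis markers were higher with trans-zeatin, at 189 to 255 against 86.5 to 87.2 summed CPM, and 7 of 7 root hair markers were lower. Of 8 endodermis markers 2 were higher, of 8 xylem markers 4 were lower, and no root tip marker was called. Their part was not tested. The isomers belong to different sequencing sets in full phosphate and cannot be told apart from them.

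In low phosphate none of the 6 genes differed between the isomers by edgeR, where 2.77% of all tested genes were called. The count was also 0 at an unadjusted p under 0.05, where 3892 of all tested genes stood, and 0 with DESeq2, which called 912 genes. The 95% interval of trans-zeatin minus cis-zeatin ran from -0.45 to 0.08 for GAMMA-TIP1, from -0.20 to 0.26 for GAMMA-TIP2, from -0.22 to 0.13 for DELTA-TIP1, from -0.23 to 0.29 for DELTA-TIP2, from -0.35 to 0.44 for DELTA-TIP3 and from -0.09 to 0.22 for TIP4;1. All libraries of the isomers overlapped for each gene. Without both replicates 2 the difference was 0.49 ± 0.18 for DELTA-TIP3 (adjusted p = 0.208) and 0.25 ± 0.10 for DELTA-TIP2 (adjusted p = 0.268), against 0.04 ± 0.19 and 0.03 ± 0.13 with all libraries. With the sequencing set as a term GAMMA-TIP1 stood at -0.35 ± 0.12 (adjusted p = 0.122), against -0.18 ± 0.13 without it. Of 12 tested photosynthesis markers 1 was higher with trans-zeatin than with cis-zeatin, and of 7 root hair markers 1 was lower. Their part in the TIP values was not tested.

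The trans-zeatin response of DELTA-TIP2 differed between phosphate levels, and that of GAMMA-TIP2 did so in some fits. The interaction is the low-phosphate log2 response minus the full-phosphate one and asks whether the response depends on phosphate. With trans-zeatin 2 of 6 genes were called, against 20.4% of all tested genes. For DELTA-TIP2 the interaction was -1.15 ± 0.16 (adjusted p = 5.74e-05), so its fall was deeper in low phosphate. It was -0.90 ± 0.19 with the sequencing set as a term, which rests on trans-zeatin replicate 1 of low phosphate. Without both replicates 2 it was -0.97 ± 0.11 (adjusted p = 5.93e-06). For GAMMA-TIP2 it was -0.54 ± 0.16 (adjusted p = 0.0185), and the call was lost with the set as a term (-0.38 ± 0.19, adjusted p = 0.226) and without untreated full-phosphate replicate 1 (-0.46, adjusted p = 0.0592). In the same interaction 4 of 12 tested photosynthesis markers were lower (median -0.66) and 1 of 8 xylem markers was higher, with no call among the endodermis, root hair and root tip markers. Their part in the TIP values was not tested.

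The other genes gave no call in the trans-zeatin interaction with all libraries and TMM scaling. This interaction uses the untreated full-phosphate libraries of the contrast known at the choice, so the DELTA-TIP3 value is a description. DELTA-TIP3 stood at -0.03 ± 0.21 with a 95% interval of -0.48 to 0.41 (adjusted p = 0.937), GAMMA-TIP1 at -0.37 ± 0.18 (adjusted p = 0.154), DELTA-TIP1 at -0.23 ± 0.12 (adjusted p = 0.195) and TIP4;1 at 0.27 ± 0.11 (adjusted p = 0.0768). TIP4;1 passed with library totals (0.37, adjusted p = 0.0168), with upper-quartile scaling (0.34, adjusted p = 0.0230) and with only the groups compared (0.27, adjusted p = 0.0458). GAMMA-TIP1 passed without trans-zeatin replicate 1 of low phosphate (-0.54, adjusted p = 0.0190). It stood at -0.08 ± 0.18 with the sequencing set as a term (adjusted p = 0.868) and at -0.19 ± 0.12 without both replicates 2 (adjusted p = 0.275). For cis-zeatin the interaction holds the contrast known beforehand and is given with no p-value. It was -1.30 ± 0.16 for DELTA-TIP2, 0.24 ± 0.22 for DELTA-TIP3, -0.22 ± 0.16 for GAMMA-TIP2, -0.21 ± 0.12 for DELTA-TIP1, -0.11 ± 0.18 for GAMMA-TIP1 and 0.02 ± 0.11 for TIP4;1. DELTA-TIP3 turned to -0.02 without both replicates 2, or without cis-zeatin replicate 2 alone, and TIP4;1 turned sign on leaving out any of 4 single libraries, down to -0.06. There 1 of 6 genes passed the threshold and 4.21% of all tested genes did, from which nothing is read. In the cis-zeatin interaction 1 of 8 endodermis markers was higher and 1 of 7 root hair markers was lower. Their part in the TIP values was not tested.

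Whether the isomer difference itself depends on phosphate was tested by the last interaction. None of the 6 genes was called by edgeR, against 18.3% of all tested genes. At an unadjusted p under 0.05 there was 1 of them, against 6500 of all tested genes. DESeq2 called none of the 6 genes and 3742 genes in all. The gene with the unadjusted p under 0.05 was TIP4;1, at 0.25 ± 0.11 (adjusted p = 0.11). It passed without cis-zeatin replicate 1 of low phosphate (0.33, adjusted p = 0.0320). Without both replicates 2 of the low-phosphate zeatin groups DELTA-TIP2 passed, at 0.37 ± 0.12 (adjusted p = 0.0497). In the same interaction 4 of 7 root hair markers and 1 of 8 xylem markers were higher. Of 12 tested photosynthesis markers 3 were lower, of 8 endodermis markers 1 was lower, and no root tip marker was called. Their part in the TIP values was not tested.

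**Figure D3:**
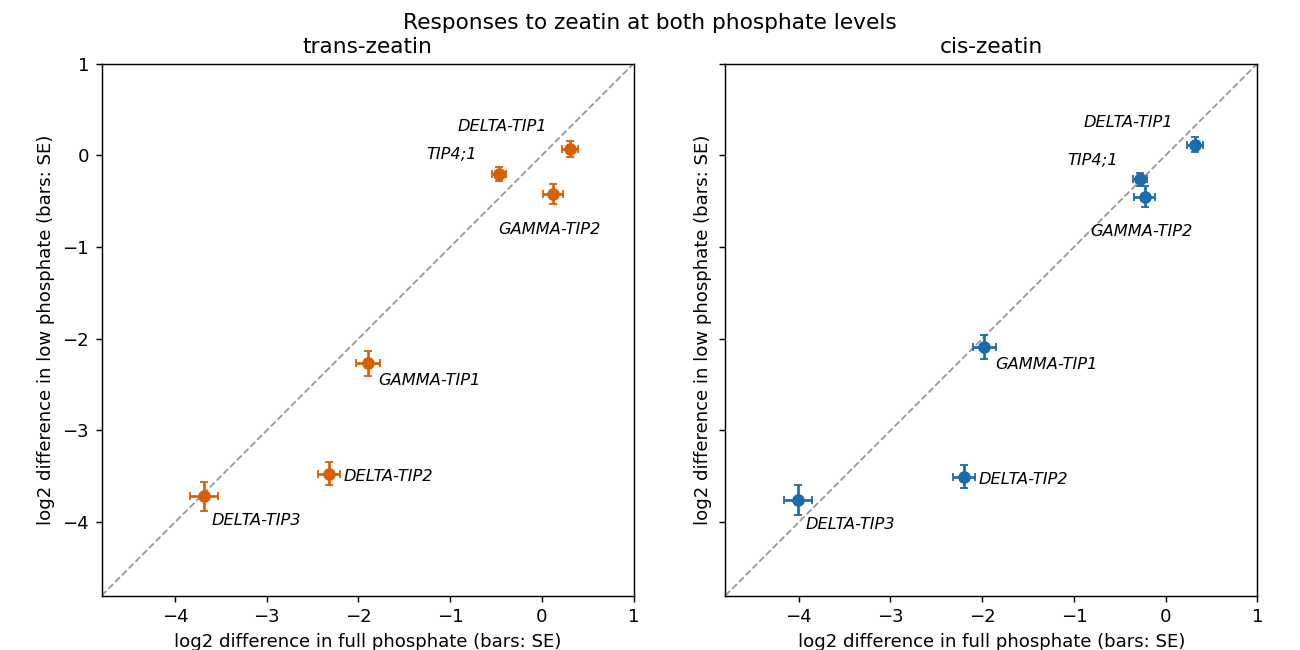
Log2 difference from untreated roots in full phosphate (horizontal axis) against that in low phosphate (vertical axis) for trans-zeatin (left) and cis-zeatin (right), with SE bars and a dashed line of equality. DELTA-TIP2 lies below the line at both isomers, at -2.32 and -3.47 for trans-zeatin, and DELTA-TIP3 lies near it, at -3.69 and -3.72.

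DELTA-TIP2 and DELTA-TIP3 can be compared within a library as a ratio per coding length. Untreated roots had 2.97 ± 0.374 (SD, n = 3) DELTA-TIP2 per DELTA-TIP3 in full phosphate and 3.22 ± 0.216 in low phosphate. With zeatin the ratio was 7.63 ± 0.563 (trans) and 10.4 ± 0.792 (cis) in full phosphate, but 3.82 ± 0.477 and 4.07 ± 1.23 in low phosphate. In full phosphate every zeatin library lay above every untreated library. The DELTA-TIP3 level with cis-zeatin in full phosphate was known at the choice of genes, and the untreated libraries there served that contrast. The cis-zeatin ratio there, and the place of both isomers above the untreated libraries, are therefore a description. For the gamma pair, GAMMA-TIP1 over GAMMA-TIP2 was 1.21 ± 0.0955 in untreated full and 0.879 ± 0.0670 in untreated low phosphate. It was 0.296 ± 0.0114 and 0.357 ± 0.00138 with trans-zeatin and cis-zeatin in full phosphate, and 0.241 ± 0.0275 and 0.282 ± 0.00725 in low phosphate.

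The summed level of the 6 genes dropped with zeatin and its make-up shifted towards GAMMA-TIP2. The sum was 3176 ± 183 CPM (SD, n = 3) in untreated full phosphate, 1787 ± 63.3 with trans-zeatin and 1533 ± 106 with cis-zeatin. At low phosphate its level was 2912 ± 96.4 untreated, 1471 ± 202 with trans-zeatin and 1484 ± 167 with cis-zeatin. Per coding length, GAMMA-TIP2 made up 33.6% ± 2.03 of the sum in untreated full phosphate and 59.1% to 65.2% in the 4 zeatin groups. DELTA-TIP1 made up 2.84% ± 0.140 in untreated full phosphate and 15.04% ± 1.27 and 15.3% ± 0.693 with trans-zeatin and cis-zeatin in low phosphate. DELTA-TIP2 went the other way, from 15.6% ± 1.45 to 1.53% ± 0.173 and 1.499% ± 0.0511 between the same groups. No test was made on the sum or the shares.

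**Figure D4:**
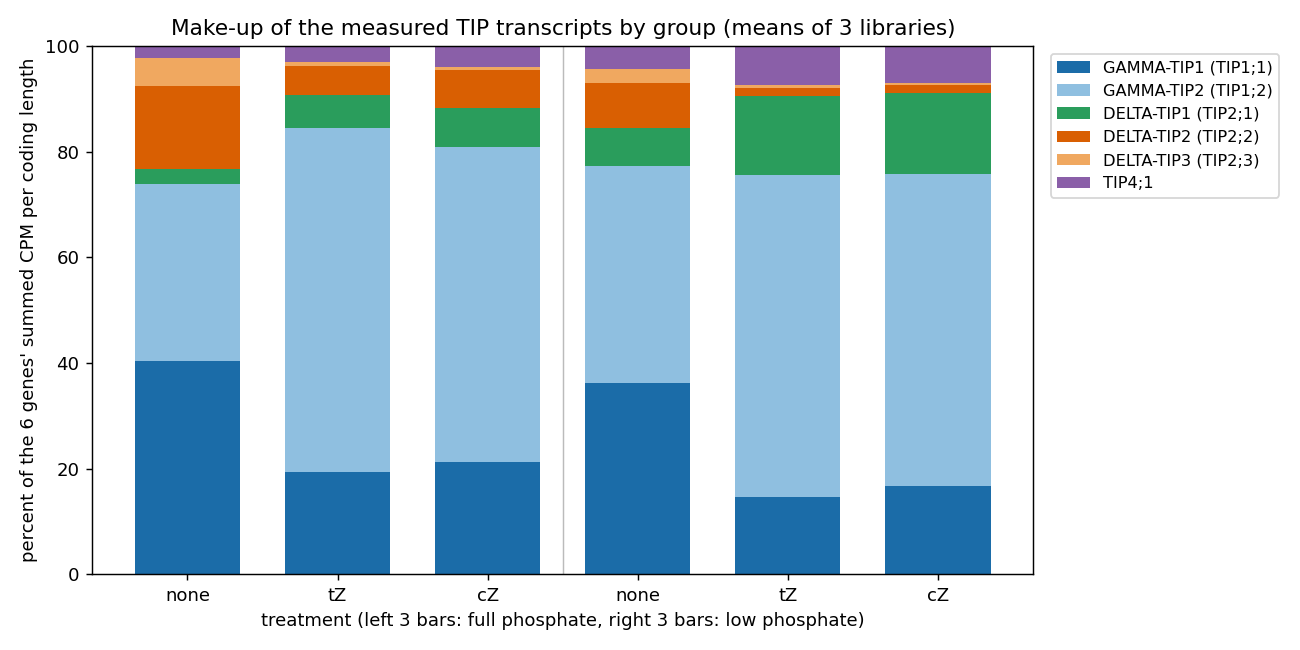
Share (percent) of each TIP gene in the summed CPM per coding length of the 6 genes, as means of 3 libraries for each group. GAMMA-TIP2 is 33.6% of the sum in untreated full phosphate and 59.1% to 65.2% in the zeatin groups, while GAMMA-TIP1 passes from 40.3% to 14.7% with trans-zeatin in low phosphate.

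DELTA-TIP3 and DELTA-TIP2 had the widest range and moved together across libraries (Pearson r = 0.93 over 18 libraries of log2 CPM that share the treatments), so the 250 bases before their annotated starts are printed. For DELTA-TIP3 the range is a description, because a low level of this gene was known at the choice. DELTA-TIP2 lies at chr4:9698940-9700472 on the plus strand with 2 exons, and the upstream stretch is chr4:9698690-9698939. DELTA-TIP3 lies at chr5:19248249-19249622 on the minus strand with 2 exons, and the stretch is chr5:19249623-19249872. Both are from TAIR10.1, given 5′ to 3′ on the gene's strand. The letters searched, on both strands, were AGATT and AGATC, cores bound by type-B response regulators, and GNATATNC, the site of PHR1, and capitals mark the matches.
DELTA-TIP2: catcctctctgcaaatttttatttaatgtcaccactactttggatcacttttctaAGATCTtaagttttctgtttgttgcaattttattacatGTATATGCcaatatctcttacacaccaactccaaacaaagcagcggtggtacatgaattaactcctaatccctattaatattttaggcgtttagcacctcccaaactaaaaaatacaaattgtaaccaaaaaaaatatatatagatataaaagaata
DELTA-TIP3: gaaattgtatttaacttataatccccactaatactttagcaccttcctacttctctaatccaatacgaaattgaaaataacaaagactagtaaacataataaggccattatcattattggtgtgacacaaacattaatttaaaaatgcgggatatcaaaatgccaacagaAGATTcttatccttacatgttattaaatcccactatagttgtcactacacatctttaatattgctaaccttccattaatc

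The 250 bases before DELTA-TIP2 hold AGATC on both strands in 1 overlapping run, 195 bases before the start, and a match to GNATATNC. The stretch before DELTA-TIP3 holds 1 AGATT, 80 bases before the start. GAMMA-TIP1, GAMMA-TIP2 and TIP4;1 each hold 1 AGATT, and DELTA-TIP1 holds neither core. Of 27443 upstream stretches of the same length in the assembly, 63.7% hold AGATT, 26.6% hold AGATC, 73.2% hold either and 5.46% hold GNATATNC. Such matches describe the letters in this window and show no binding. The longest run of bases shared by the stretches of any 2 of the 6 genes was 7 to 11 bases.

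Aquaporins of the plasma membrane, the PIP genes that carry most water into root cells, are the family nearest in kind to the TIPs and were all tested. In low phosphate 3 of 13 rose and 7 fell with trans-zeatin (median -0.27) and 2 rose and 8 fell with cis-zeatin (median -0.28), against medians of -1.35 and -1.27 for the 6 TIP genes. The TIP genes were chosen with values of these data known, so their medians are a description. No TIP gene lay near its median: with trans-zeatin GAMMA-TIP1 stood at -2.27 and GAMMA-TIP2 at -0.42, with none between. PIP1;1 fell by 2.40 ± 0.13 with trans-zeatin (adjusted p = 4.18e-12) and fell by 2.48 ± 0.13 with cis-zeatin (adjusted p = 3.96e-12). PIP2;1, a main water channel of roots, fell by 1.62 ± 0.10 (adjusted p = 9.59e-11) and fell by 1.74 ± 0.11 (adjusted p = 4.38e-11). In full phosphate 3 rose and 8 fell with trans-zeatin, and 1 rose and 8 fell with cis-zeatin. Starvation alone raised 4 and lowered 6, with PIP2;1 at -0.63 ± 0.10 (adjusted p = 4.24e-05). Over all tested genes 44.7% were called in starvation. With trans-zeatin and cis-zeatin 49.4% and 26.2% were called in full phosphate, and 32.2% and 31.2% in low phosphate. These shares also stand beside the counts of the lists below, and nothing is read from a count near its share. PIP2;2 and PIP2;3 are near-identical neighbours, so reads may be split between them.

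The NIP and SIP aquaporins, of which 9 of 12 were tested, went both ways. With each isomer at each phosphate level 3 rose and 3 fell, and in starvation 3 rose and 1 fell. NIP1;1 rose by 1.27 ± 0.10 with trans-zeatin in low phosphate (adjusted p = 1.67e-09), and NIP6;1, a boric acid channel, fell by 2.85 ± 0.23 (adjusted p = 2.36e-09). Of the 4 other TIP genes 1 was tested. This was TIP1;3, known from pollen, which had no read in the 3 untreated full-phosphate libraries and 2.28 ± 0.23 CPM (SD, n = 3) in untreated low phosphate. There it was at 0.26 ± 0.14 CPM with trans-zeatin and 1.06 ± 0.28 with cis-zeatin. Its rise in starvation was called (adjusted p = 8.33e-09). In low phosphate it fell by 3.10 ± 0.35 with trans-zeatin (adjusted p = 8.25e-07) and by 1.10 ± 0.27 with cis-zeatin (adjusted p = 0.00377). Trans-zeatin minus cis-zeatin was -2.00 ± 0.39 there (adjusted p = 0.00964). These tests rest on low counts, at most 54 in a library. TIP3;1, TIP3;2 and TIP5;1 had 16, 2 and 3 reads in all 18 libraries together.

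Genes for other proteins of the same membrane had medians between -0.16 and -0.04 with the isomers in low phosphate, against -1.35 and -1.27 for the TIP genes. Because the TIP genes were chosen with values of these data known, the contrast is a description. Of 21 genes for vacuolar proton pumps, which acidify the vacuole, 12 rose and 1 fell in starvation (median 0.26), among them the pyrophosphatase AVP1 by 0.51 ± 0.09 (adjusted p = 8.82e-05). With trans-zeatin in low phosphate 1 rose and 4 fell, and with cis-zeatin 1 rose and none fell. With trans-zeatin in full phosphate 4 rose and 4 fell, and with cis-zeatin 1 rose and 1 fell. VHA-E3 was the gene that rose in low phosphate, by 0.51 ± 0.11 (adjusted p = 0.000993) and 0.88 ± 0.11 (adjusted p = 2.22e-06).

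Of 15 other tonoplast transporters, 3 rose and 2 fell in starvation, among them the cation exchanger CAX3, which rose by 1.36 ± 0.12 (adjusted p = 6.09e-09). With trans-zeatin 4 rose and 2 fell in full phosphate and 4 rose and 3 fell in low phosphate. With cis-zeatin 4 rose and 1 fell in full phosphate and 3 rose and 6 fell in low phosphate. The nitrate exchanger CLC-A rose by 0.70 ± 0.10 with trans-zeatin in low phosphate (adjusted p = 1.75e-05), and the phosphate transporter PHT5;1 fell by 0.56 ± 0.08 (adjusted p = 2.17e-05).

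**Figure D5:**
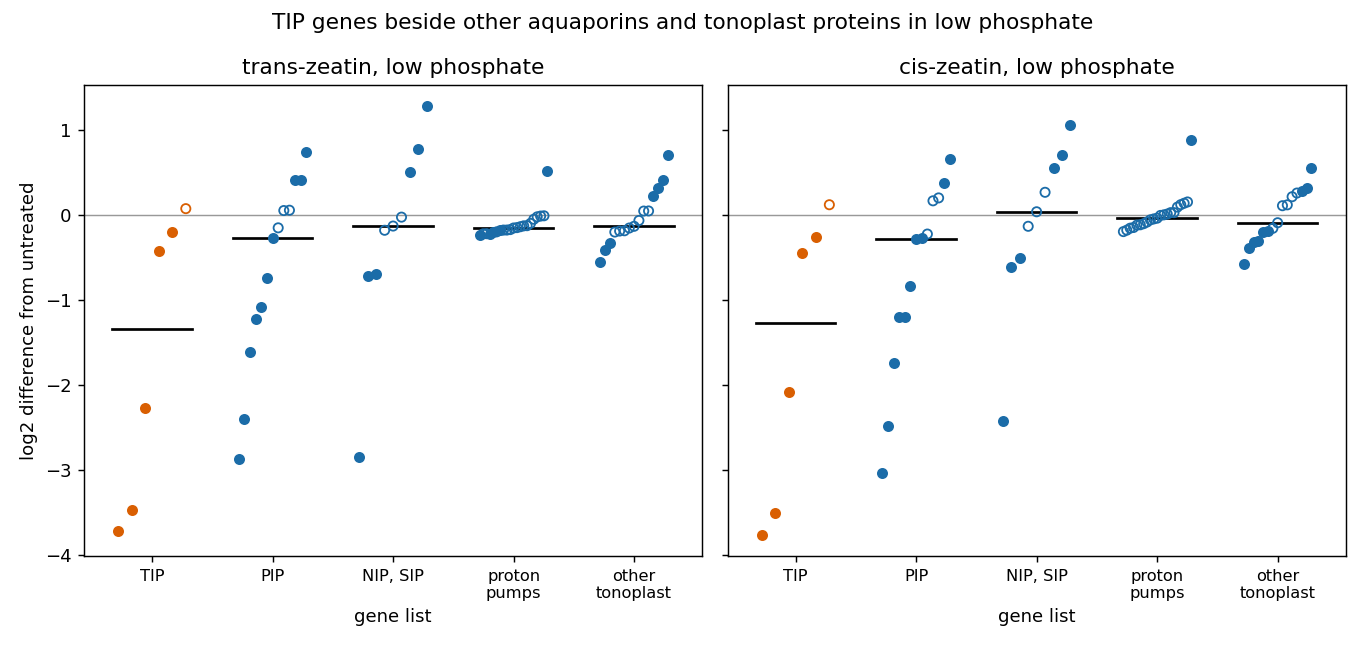
Log2 difference from untreated roots in low phosphate with trans-zeatin (left) and cis-zeatin (right) for the 6 TIP genes and the tested genes of 4 lists. Each point is a gene, filled where its adjusted p is under 0.05, and the black bar is the list's median, -1.35 and -1.27 for the TIP genes and -0.27 and -0.28 for the PIP genes. The TIP genes were chosen with values of these data known.

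The 2 genes most like each TIP gene were found by Pearson's r over the 18 libraries of log2 CPM among 12564 genes with a mean of at least 10 CPM. The libraries share treatments and sets, so these values are a description. Most like GAMMA-TIP1 were the vacuolar sorting receptor gene VSR6 (r = 0.99) and AT2G46620 (r = 0.98). GAMMA-TIP2 was nearest to the polyubiquitin gene UBQ10 (r = 0.93) and to HIR2 (r = 0.89). For DELTA-TIP1 they were NSP3 (r = 0.98) and the ribonuclease gene RNS1 (r = 0.98), and for DELTA-TIP2 FTIP1 (r = 0.98) and AT3G14280 (r = 0.98). The genes nearest to DELTA-TIP3 were PIP1;1 (r = 0.98) and PIP2;2 (r = 0.98), and those nearest to TIP4;1 were AT2G04170 (r = 0.99) and the ion channel gene CNGC14 (r = 0.99). Between the 6 genes themselves r was highest for GAMMA-TIP1 and DELTA-TIP3 (0.98) and lowest for DELTA-TIP1 and DELTA-TIP2 (-0.64). DELTA-TIP1 and TIP4;1, the pair that rose in low phosphate, had r = 0.85.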

How the data were processed

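Roots of 18 samples were profiled by poly(A) RNA-seq with 50-base single-end reads. The authors deposited 1 table of counts per gene, with 37037 entries, of which 24653 had reads. The table is named as normalized, but its values are whole numbers that sum to 20839562 to 21871669 per library, 88.66% to 91.02% of the clean reads, so they were treated as raw counts. The tools named per the submitters' processing notes are edgeR, HTSeq, HISAT2, FastQC and CASAVA 1.4. The genome build and strandedness are not given in the sources used here. A deposited sequencing report gives other numbers per library (read totals and reads removed). Gaps of over 15000 in the reads removed for undetermined bases (81544 to 85178, 22738 to 25354 and 40794 to 58614) defined 3 sets.

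Genes passing filterByExpr (minimum count 10) were tested with edgeR 4.0.16 in R 4.3.3, with TMM scaling (factors 0.953 to 1.063) and 1 quasi-likelihood fit over all groups. The biological coefficient of variation was 8.5%. Calls have an adjusted p under 0.05. DESeq2 1.42.0 was an alternative. The scripts were tested on simulated data. CPM were computed from the counts and TMM factors. Gene names matched RefSeq for 32548 entries, including 6 of 6 TIP genes and 110 of 110 listed genes. Sequences were read with Python 3.11.15 and Biopython 1.88.

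The TIP genes, lists and tests were chosen with earlier results of these data known. Named were the 6 genes, the 2 genes most like each, and up to 3 genes per list with the smallest adjusted p in a comparison. The lists were other TIP, PIP, NIP and SIP aquaporins, vacuolar proton pumps, other tonoplast transporters, and markers of shoot (photosynthesis), root tip, endodermis, root hair and xylem. Same-numbered libraries were checked for pairing by the correlation of their deviations from group means. This was 0.27, 0.30 and 0.17 for untreated and trans-zeatin roots in low phosphate, which counts as paired, and not above 0.1 throughout for any other pair of groups. Alternatives covered scaling, filters, test, libraries left out, the sequencing set and the replicate block.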

Additional observations from a re-analysis of the deposited data

Results flagged for a closer look

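The trans-zeatin response differed between phosphate levels for 2 TIP genes by the interaction test. The difference of the log2 responses, low minus full phosphate, was -1.15 for DELTA-TIP2 (TIP2;2) and -0.54 for GAMMA-TIP2 (TIP1;2). For cis-zeatin it was -1.3 for DELTA-TIP2, given with no p-value because it holds a contrast known when the genes were chosen. With the sequencing set as a term, which rests on 1 trans-zeatin library, the trans-zeatin values were -0.90 for DELTA-TIP2 and -0.38 for GAMMA-TIP2. The latter lost its call. The cause was not tested.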

How the results depend on the processing

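Over the comparisons with a test, TIP genes kept direction and side of the threshold in 819 of 864 values with a single library left out and in 477 of 516 under other settings. In a comparison of 2 groups most of the libraries left out belong to neither group and act only through the shared fit and scaling. The DELTA-TIP3 values called a description are counted too. With the sequencing set as a term, members called were 3 for trans-zeatin and 3 for cis-zeatin in low phosphate and 1 for trans-zeatin by phosphate, and all genes called were 4140, 2678 and 1767. These fits rest on 1 trans-zeatin library, and the term could not be estimated for starvation, cis-zeatin in full phosphate, the isomers in full phosphate and the 2 interactions that use them. For the isomers in full phosphate, members called were 2 with library totals, upper-quartile scaling or a minimum count of 50, 3 with only the groups compared or without both low-phosphate zeatin replicates 2, and 0 to 2 with single libraries left out. The 3 include DELTA-TIP3, a description here. All genes called were then 51.3% with only the groups compared and 48.2% without both replicates 2, against 41.2% in the main fit. With library totals, upper-quartile scaling and a minimum count of 50 they were 40.8%, 41.4% and 44.9%. With single libraries left out 6687 to 9105 genes were called. For the isomers in low phosphate, 553 genes were called, against 79 with only the groups compared, 325 without both replicates 2, 912 with DESeq2 and 293 to 847 with single libraries left out. Members called for trans-zeatin by phosphate were 1 to 3, and for the isomers by phosphate 0 to 1, with single libraries left out. All genes called were then 3059 to 5011 and 2652 to 3972, against 4085 and 3666 of 19982 in the main fit. For the isomers by phosphate 1 member was called with library totals or without both replicates 2. There 3734 of 19982 and 3329 of 20104 genes were called.

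No called difference of a TIP gene reversed. For the isomers in low phosphate, the set term gave -0.059 for GAMMA-TIP2 (TIP1;2) and -0.11 for DELTA-TIP2 (TIP2;2), and leaving out both replicates 2 gave 0.059 for GAMMA-TIP1 (TIP1;1) and 0.023 for DELTA-TIP1 (TIP2;1). For trans-zeatin by phosphate DELTA-TIP3 (TIP2;3) was 0.15 without both replicates 2, 0.056 with library totals, 0.037 with upper quartiles and 0.030 with the set term. For the isomers by phosphate DELTA-TIP1 was 0.042 and DELTA-TIP3 0.17 without both replicates 2, and DELTA-TIP1 0.032 with library totals. With single libraries left out, DELTA-TIP1 ranged from -0.084 to 0.046 for the isomers in full phosphate. In low phosphate GAMMA-TIP2 ranged from -0.072 to 0.14, DELTA-TIP1 from -0.12 to 0.0050, DELTA-TIP2 from -0.11 to 0.22 and DELTA-TIP3 from -0.12 to 0.31. DELTA-TIP3 ranged from -0.20 to 0.15 for trans-zeatin by phosphate, and DELTA-TIP1 from -0.10 to 0.038 for the isomers by phosphate. For cis-zeatin by phosphate, with no test, DELTA-TIP3 ranged from -0.024 to 0.41 and TIP4;1 from -0.058 to 0.073 with single libraries left out. The cause was not tested.

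With the replicate block, TIP4;1 under trans-zeatin in low phosphate stood at -0.20 (adjusted p = 0.0603), and no other call of a TIP gene changed. With library totals the share of rises among called genes passed from 48.9% to 36.5% for trans-zeatin and from 48.4% to 36.5% for cis-zeatin in full phosphate. Pseudocounts were not run, since the values are counts. Depth limits TIP1;3, whose highest count was 54.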
